A study of Homo sapiens with 15 samples.

Results

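The genes described are 9 members of the extracellular proteolytic system of carcinoma invasion: the matrix metalloproteases MMP1, MMP9, MMP10, MMP13 and MMP14, the urokinase PLAU and its receptor PLAUR, and the inhibitors TIMP1 and TIMP2. They were chosen by symbol as a functional group, with earlier results of these data known. They are 9 of the 60649 genes listed in the deposited count files. The study sequenced RNA from HSC-5, an established human cutaneous squamous cell carcinoma line (spelled HSC5 in the labels), to compare the loss of the arginine methyltransferase PRMT5 with the loss of its partner protein WDR77. The 15 libraries form 5 conditions of 3 biological replicates each. The sgNeg control has the genotype WT, sgPRMT5#1 and sgPRMT5#2 are labelled PRMT5 Knockout, and sgWDR77#1 and sgWDR77#2 are labelled WDR77 Knockout, whereas the design text of the series speaks of genes knocked down by sgRNA. All 5 conditions carry the treatment label Neomycin. The labels do not say whether each line was 1 clone or a pool of infected cells. Total RNA was taken with an RNeasy kit, and the labels name a stranded mRNA library protocol.

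Matrix metalloproteases are zinc endopeptidases that are made as inactive proenzymes and that cut collagens and other proteins of the extracellular matrix. Urokinase, bound to its receptor on the cell surface, turns plasminogen into plasmin, which cuts fibrin and can activate several pro-metalloproteases, while the tissue inhibitors of metalloproteases block the active enzymes. In squamous cell carcinoma of the skin both systems are known for their part in the passage of tumour cells through the basement membrane and the dermis.

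Reads assigned to genes numbered 5146711 to 6730428 per library. Expression is given in counts-per-million (CPM) scaled by the trimmed mean of M values, and differences are given as log2 fold changes with their standard error (SE) and with a p adjusted over all genes tested, called at an adjusted p under 0.05. Every comparison with sgNeg used the same 3 sgNeg libraries. In bulk RNA, fewer cells that express a gene and less RNA of that gene per cell cannot be told apart. The labelled cell type was checked on markers. The 7 squamous markers summed to 2211 to 3223 CPM per library with KRT17 the most abundant, although KRT14 averaged only 0.440 CPM. The 6 fibroblast markers summed to 6.68 to 15.5 CPM with COL1A1 the most abundant and COL1A2 at 0 in all 15 libraries. The 5 leukocyte and macrophage markers summed to 0.900 to 3.72 CPM with CD14 the most abundant, and PTPRC had 1 read in the whole series. The 3 endothelial markers summed to 12.7 to 36.1 CPM with CDH5 the most abundant. Single markers moved, in both directions. KRT5 fell with all 4 sgRNAs, by 1.28 on the log2 scale in sgPRMT5#1 (SE 0.14, adjusted p = 4.33e-05) and by up to 3.99 in sgWDR77#1 (SE 0.18, adjusted p = 1.82e-07). DSG3 was also called lower with all 4, with log2 fold changes from -0.51 in sgPRMT5#1 (adjusted p = 0.0246) to -0.96 in sgWDR77#1 (adjusted p = 0.00423). CDH1 was called higher in sgPRMT5#2 (0.34, adjusted p = 0.00029), sgWDR77#1 (0.46, adjusted p = 0.0451) and sgWDR77#2 (0.35, adjusted p = 0.0144), and KRT17 was called higher in sgWDR77#2 (0.82, adjusted p = 1.23e-05). KRT14, TP63 and DSP did not pass the threshold with any of the 4 sgRNAs against sgNeg, and KRT14 was tested with sgPRMT5#1 and sgWDR77#2 alone. CDH5 rose in sgWDR77#1 with a log2 fold change of 0.83 (SE 0.18, adjusted p = 0.0271), and the endothelial sums there were 34.2, 31.3 and 36.1 CPM beside 22.9, 16.6 and 24.9 CPM in sgNeg. In sgPRMT5#2 COL1A1 had a log2 fold change of -0.66 (SE 0.21, adjusted p = 0.0142), CSF1R one of 1.73 (SE 0.55, adjusted p = 0.0161) and VWF one of -2.29 (SE 0.56, adjusted p = 0.00271). The part of other cell types, or of a change in the squamous markers, in the results was not tested.

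The targets of the sgRNAs were read first. PRMT5 (ENSG00000100462.16, chromosome 14, 22920525 to 22929408, minus strand, GRCh38) measured 59.1, 49.6 and 67.8 CPM in the sgNeg libraries (58.9 ± 9.10, SD, n = 3). It measured 33.0, 35.8 and 41.4 CPM in sgPRMT5#1 (36.8 ± 4.29, SD, n = 3) and 44.2, 44.5 and 39.4 CPM in sgPRMT5#2 (42.7 ± 2.85, SD, n = 3). All 6 libraries of the PRMT5 sgRNAs lay below all 3 sgNeg libraries. The log2 fold change of PRMT5 was -0.69 for sgPRMT5#1 (SE 0.13, adjusted p = 0.00525) and -0.45 for sgPRMT5#2 (SE 0.11, adjusted p = 0.00257), and the direct comparison of the sgRNAs gave 0.23 (SE 0.11, adjusted p = 0.146). WDR77 (ENSG00000116455.14, chromosome 1, 111439890 to 111449256, minus strand) measured 125, 114 and 119 CPM in sgNeg (119 ± 5.70, SD, n = 3). It measured 30.8, 52.0 and 53.3 CPM in sgWDR77#1 (45.4 ± 12.6, SD, n = 3) and 26.6, 24.9 and 22 CPM in sgWDR77#2 (24.5 ± 2.33, SD, n = 3). No library of a WDR77 sgRNA reached the sgNeg range. WDR77 fell with a log2 fold change of -1.40 in sgWDR77#1 (SE 0.17, adjusted p = 0.00141) and of -2.29 in sgWDR77#2 (SE 0.11, adjusted p = 1.78e-08). The PRMT5 RNA averaged 57.7 ± 5.66 CPM in sgWDR77#1 and 69.8 ± 8.72 CPM in sgWDR77#2 (SD, n = 3), and its log2 fold change there was 0.01 (SE 0.14, adjusted p = 0.981) and 0.24 (SE 0.12, adjusted p = 0.279). The WDR77 RNA averaged 136 ± 18.3 CPM in sgPRMT5#1 and 125 ± 5.39 CPM in sgPRMT5#2 (SD, n = 3), and its log2 fold change there was 0.17 (SE 0.10, adjusted p = 0.394) and 0.06 (SE 0.07, adjusted p = 0.532). RNA levels do not measure how much protein was lost.

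Levels of different genes were compared per kilobase of exon, in sgNeg. PLAU, which encodes urokinase, stood highest at 113 ± 15.3 CPM per kilobase (SD, n = 3 here and for the levels that follow). MMP14, a membrane-anchored metalloprotease that activates pro-MMP2, followed at 68.6 ± 5.18 CPM per kilobase, and TIMP1, a secreted inhibitor of metalloproteases, at 39.0 ± 5.90. The collagenase MMP13 had 19.0 ± 0.528 CPM per kilobase, the collagenase MMP1 had 14 ± 4.60, and the stromelysin MMP10 had 7.93 ± 1.61. TIMP2, the inhibitor that also takes part in the activation of pro-MMP2 by MMP14, had 5.28 ± 0.834 CPM per kilobase, and PLAUR had 3.62 ± 0.662. The ranges of 1 SD around the means overlapped for the neighbours MMP13 and MMP1 and for the neighbours MMP1 and MMP10, and for no other neighbours in this order. The order of the upper 3 genes, PLAU, MMP14 and TIMP1, was the same in all 5 conditions. The lower ranks changed places, and MMP1 had rank 4 in sgPRMT5#2 at 30 ± 2.11 CPM per kilobase, where MMP13 had rank 7 at 3.79 ± 0.809. In sgWDR77#1 MMP1 had rank 7, at 2.78 ± 0.538 CPM per kilobase.

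**Figure D1:**
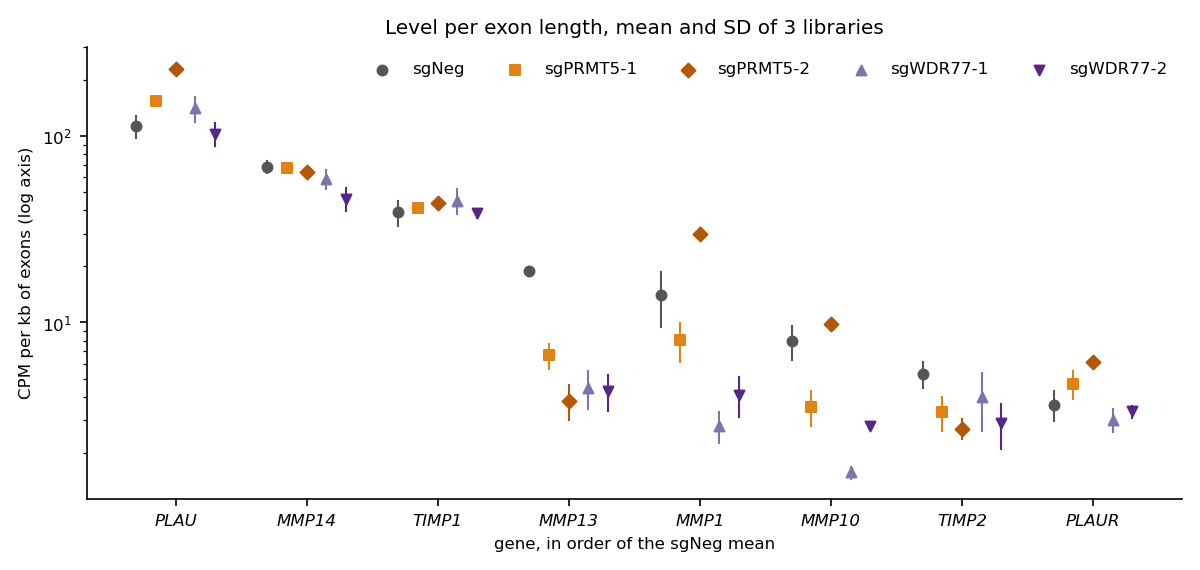
The mean level per kilobase of exon (CPM per kilobase, log axis, bars ± SD, n = 3 libraries) of the members in each of the 5 conditions. PLAU, MMP14 and TIMP1 keep the upper 3 places, and MMP13 and MMP1 change places below them.

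MMP9, a gelatinase (ENSG00000100985.7, chromosome 20, 46008908 to 46016561, plus strand), was the member that did not pass the filter of a mean normalized count of at least 3 in any comparison. It had 6 reads in all, of which the sgPRMT5#2 libraries held 2, 2 and 1 and sgWDR77#2 replicate 1 held 1, and 11 libraries had 0 reads. In sgPRMT5#2 these reads come to 0.311, 0.340 and 0.169 CPM, and all 3 sgNeg libraries had 0 reads. A limit of 3 counts corresponds to 0.446 to 0.583 CPM in the 15 libraries, so that 0 reads do not show that MMP9 was absent. The other 8 members were tested in every comparison.

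The comparison of each sgRNA with sgNeg asks which genes changed when that sgRNA was used. In sgPRMT5#1, 5 of the 8 tested members were called, where 3.76% of 14102 genes were called. Of these, PLAU was higher (1.52% of all genes were called higher), and MMP1, MMP10, MMP13 and TIMP2 were lower (2.24% of all genes). This count was 3 without sgNeg replicate 1 and 3 without sgPRMT5#1 replicate 2. In sgPRMT5#2, 5 of 8 members were called against 40.1% of 14184 genes, with MMP1, PLAU and PLAUR higher (20.9% of all genes) and MMP13 and TIMP2 lower (19.3%). With so large a share of all genes called in this comparison, the 5 members are described as single genes. In sgWDR77#1, 3 of 8 members were called, all lower (MMP1, MMP10 and MMP13), beside 2.71% of 14202 genes in either direction, 1.04% higher and 1.67% lower. In sgWDR77#2, 5 of 8 members were called, all lower (MMP1, MMP10, MMP13, MMP14 and TIMP2), beside 4.97% of 14038 genes, 1.89% higher and 3.08% lower. The median log2 fold change of the 8 tested members was -0.36 for sgPRMT5#1 and 0.25 for sgPRMT5#2, and it was -0.32 for sgWDR77#1 and -0.74 for sgWDR77#2. The same median over all genes tested was 0.0036, 0.0014, 0.02 and 0.01 in that order of comparisons. MMP1 and MMP13 were called in all 4 comparisons, MMP10 and TIMP2 in 3, PLAU in 2, PLAUR and MMP14 in 1, and TIMP1 did not pass the threshold.

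**Figure D2:**
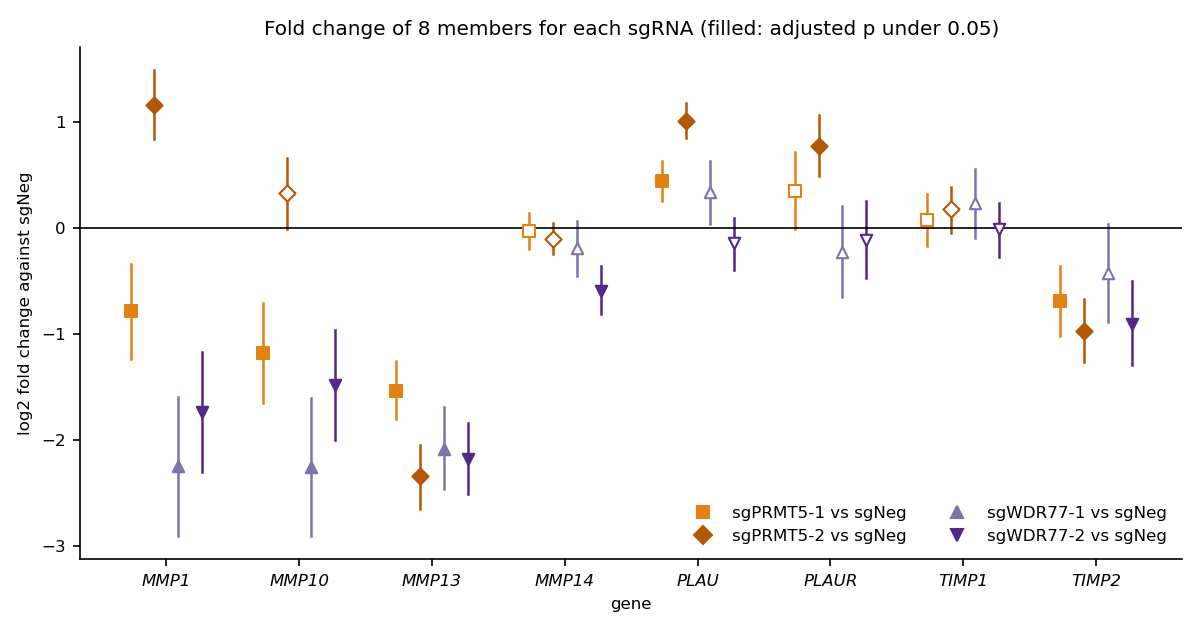
Log2 fold change against sgNeg (y axis) of the 8 tested members for each of the 4 sgRNAs, with 95% intervals as bars and filled points for an adjusted p under 0.05. MMP13 is lower for all 4 sgRNAs, and MMP1 is higher for sgPRMT5#2 and lower for the other 3.

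MMP13 (ENSG00000137745.12, chromosome 11, 102942995 to 102955732, minus strand) encodes collagenase 3, which cuts fibrillar collagens with a preference for type II. The sgNeg libraries held 55.5, 52.9 and 53.0 CPM of it (53.8 ± 1.5, SD, n = 3). The sgPRMT5#1 libraries held 20.3, 20.9 and 15.6 CPM (18.9 ± 2.91, SD, n = 3), and the sgPRMT5#2 libraries held 11.7, 12.4 and 8.12 CPM (10.7 ± 2.29, SD, n = 3). The 6 libraries of the PRMT5 sgRNAs were all below the lowest sgNeg library, with no overlap. The sgWDR77#1 libraries held 15.5, 12.8 and 9.67 CPM (12.7 ± 2.92, SD, n = 3), and the sgWDR77#2 libraries held 14.8, 12.0 and 9.54 CPM (12.1 ± 2.64, SD, n = 3). These 6 libraries did not overlap with sgNeg either, and the WDR77 sgRNAs overlapped with each other. MMP13 fell with a log2 fold change of -1.53 in sgPRMT5#1 (SE 0.13, adjusted p = 3.41e-06), a 2.88-fold difference. It was -2.34 in sgPRMT5#2 (SE 0.15, adjusted p = 3.48e-10), a 5.08-fold difference. For sgWDR77#1 it was -2.08 (SE 0.18, adjusted p = 7.16e-05) and for sgWDR77#2 -2.18 (SE 0.16, adjusted p = 1.36e-06). MMP13 was the member called lower in every one of the 4 comparisons with no call lost under any alternative or left-out library.

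MMP1 (ENSG00000196611.6, chromosome 11, 102789401 to 102798160, minus strand) encodes interstitial collagenase, which cuts fibrillar collagens of types I and III. In sgNeg it measured 41.7, 24.3 and 48.8 CPM (38.3 ± 12.6, SD, n = 3), the widest spread relative to the mean of the 8 tested members in that condition. The sgPRMT5#1 libraries measured 17.7, 20.4 and 27.9 CPM (22 ± 5.29, SD, n = 3), and replicate 3 of these lay above sgNeg replicate 2, so that the groups overlapped. By contrast the sgPRMT5#2 libraries measured 88.8, 79.7 and 78.0 CPM (82.2 ± 5.78, SD, n = 3), all above the highest sgNeg library. In sgWDR77#1 the values were 9.05, 6.11 and 7.66 CPM (7.61 ± 1.47, SD, n = 3), and in sgWDR77#2 they were 14.2, 10.4 and 9.0 CPM (11.2 ± 2.71, SD, n = 3). All 6 of these were below the lowest sgNeg library. MMP1 rose with a log2 fold change of 1.16 in sgPRMT5#2 (SE 0.15, adjusted p = 6.17e-06). It fell with a log2 fold change of -2.24 in sgWDR77#1 (SE 0.30, adjusted p = 0.00249) and of -1.73 in sgWDR77#2 (SE 0.27, adjusted p = 0.00134).

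The call of MMP1 in sgPRMT5#1 was close to the threshold, with a log2 fold change of -0.78 (SE 0.21, adjusted p = 0.0469). Without sgNeg replicate 1 the values were -0.70 (adjusted p = 0.169) and without sgNeg replicate 3 they were -0.61 (adjusted p = 0.118). Without sgPRMT5#1 replicate 1 they were -0.62 (adjusted p = 0.159) and without sgPRMT5#1 replicate 2 they were -0.75 (adjusted p = 0.148). The direction held in each of these fits, and the call did not. MMP1 shares 223 exon bases (8.14% of its exon length) with WTAPP1 on the opposite strand, which had 46 reads over the 15 libraries beside 2870 for MMP1.

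MMP10 (ENSG00000166670.10, chromosome 11, 102770502 to 102780628, minus strand) encodes stromelysin 2, which cuts proteoglycans and fibronectin and can activate pro-collagenases. The sgNeg libraries measured 15.7, 10.7 and 15.4 CPM (13.9 ± 2.83, SD, n = 3). The sgPRMT5#1 libraries measured 5.50, 5.43 and 7.70 CPM (6.21 ± 1.29, SD, n = 3), below all sgNeg libraries. In sgPRMT5#2 they measured 17.9, 17.5 and 16.4 CPM (17.3 ± 0.762, SD, n = 3), all above the highest sgNeg library. In sgWDR77#1 the values were 2.77, 2.96 and 2.55 CPM (2.76 ± 0.204, SD, n = 3), and in sgWDR77#2 they were 5.01, 4.77 and 4.86 CPM (4.88 ± 0.119, SD, n = 3). Both groups lay below the lowest sgNeg library and did not overlap with each other. MMP10 fell with a log2 fold change of -1.18 in sgPRMT5#1 (SE 0.23, adjusted p = 0.0061). It was 0.33 in sgPRMT5#2 (95% interval -0.01 to 0.66, adjusted p = 0.11), which was not called. It was -2.25 in sgWDR77#1 (SE 0.30, adjusted p = 0.00242) and -1.48 in sgWDR77#2 (SE 0.24, adjusted p = 0.00229).

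**Figure D3:**
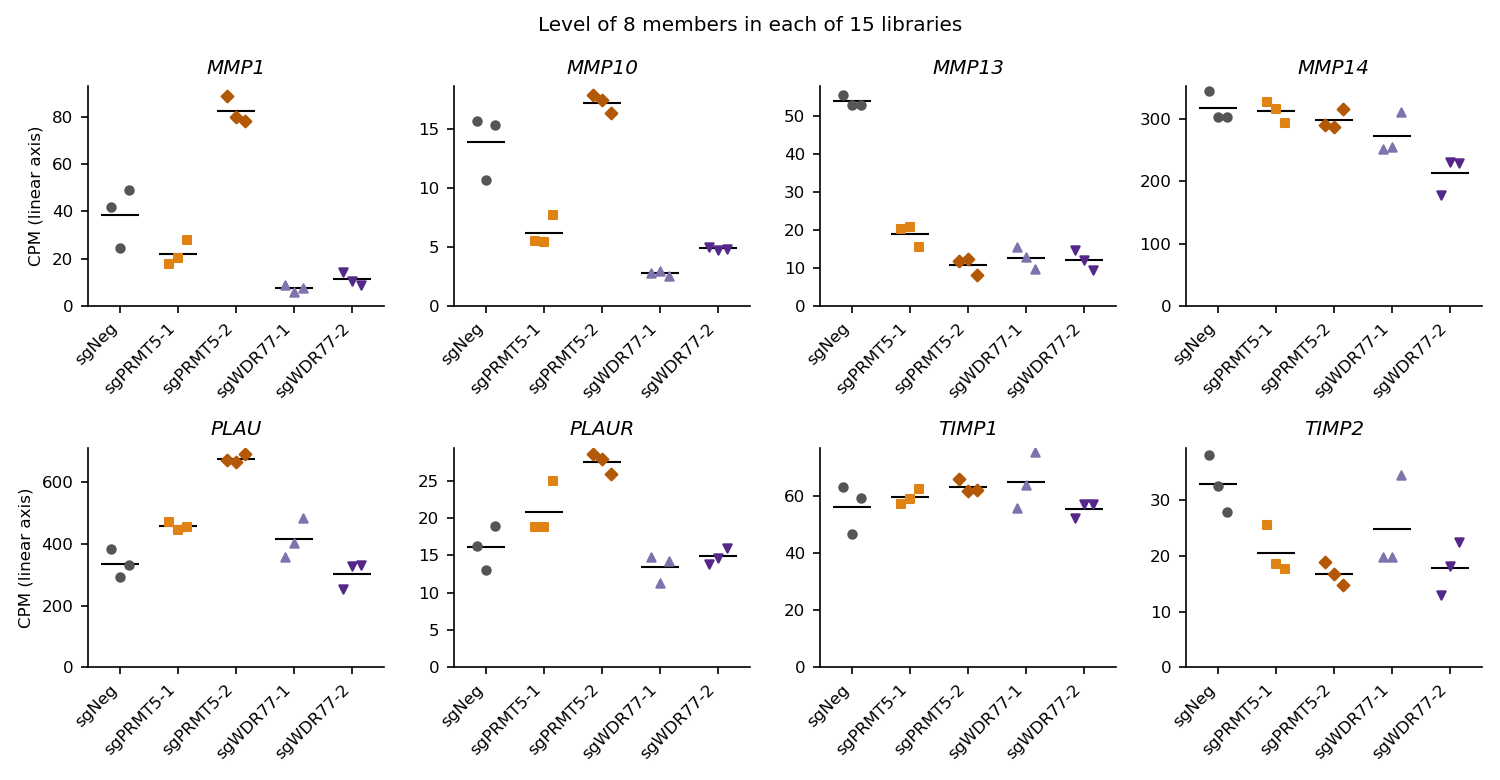
TMM-scaled CPM (linear axis) of the 8 tested members in each of the 15 libraries, with a dot for each library and a line at the mean of each condition. The sgNeg libraries of MMP13 stand apart from all other libraries, and those of TIMP1 overlap with each of the other conditions.

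MMP1 and MMP10 moved together across conditions, and PLAU and PLAUR were higher in sgPRMT5#2. The start regions of the members were searched for the AP-1 motif TGANTCA, whose letters read the same on both strands. RefSeq promoters on GRCh38.p14 (250 bases before to 50 after a start) were found for 5 members with 6 entries, namely MMP10, MMP14, PLAU, PLAUR and TIMP1. MMP1, MMP9, MMP13 and TIMP2 had no entry. A match was present in 2 of the 6 entries, those of MMP10 and PLAUR, and in 2707 of 35116 promoters of the same length in the genome (7.71%). The MMP10 entry (chr11:102780579-102780878, minus strand) and the PLAUR entry (chr19:43670120-43670419, minus strand) are shown because they hold the motif, and 1 of the PLAU entries (chr10:73910882-73911181, plus strand) is shown because PLAU had the highest level per length and has no match in this window. Capitals mark the motif, at -67 in MMP10 and at -186 in PLAUR relative to the start. The sequences run 5′ to 3′ on the strand of the gene.
MMP10: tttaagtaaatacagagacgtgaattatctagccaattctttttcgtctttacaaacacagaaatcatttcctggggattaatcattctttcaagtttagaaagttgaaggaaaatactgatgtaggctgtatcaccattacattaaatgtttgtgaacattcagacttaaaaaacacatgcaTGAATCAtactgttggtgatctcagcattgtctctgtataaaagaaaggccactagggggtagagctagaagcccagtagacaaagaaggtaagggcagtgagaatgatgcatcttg
PLAUR: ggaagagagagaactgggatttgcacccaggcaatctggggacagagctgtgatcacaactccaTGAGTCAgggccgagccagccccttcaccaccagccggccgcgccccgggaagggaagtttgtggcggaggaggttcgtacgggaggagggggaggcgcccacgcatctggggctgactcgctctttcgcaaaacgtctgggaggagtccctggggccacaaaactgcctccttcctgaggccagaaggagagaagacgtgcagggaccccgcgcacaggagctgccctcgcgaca
PLAU: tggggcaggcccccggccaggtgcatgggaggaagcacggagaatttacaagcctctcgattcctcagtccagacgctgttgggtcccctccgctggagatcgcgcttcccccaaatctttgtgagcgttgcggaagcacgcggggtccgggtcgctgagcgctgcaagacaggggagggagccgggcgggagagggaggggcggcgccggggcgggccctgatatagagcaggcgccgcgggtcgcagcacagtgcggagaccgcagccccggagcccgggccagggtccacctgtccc
A match is a description of the letters, and no binding was measured in this series. Whether AP-1 has a part in the changes of these genes was not tested.

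MMP14 (ENSG00000157227.14, chromosome 14, 22836560 to 22849041, plus strand) lies 71.5 kilobases from PRMT5. Its sgNeg libraries measured 345, 303 and 304 CPM (317 ± 23.9, SD, n = 3). The sgWDR77#2 libraries measured 178, 232 and 230 CPM (213 ± 30.5, SD, n = 3), all below the lowest sgNeg library. MMP14 fell in sgWDR77#2 with a log2 fold change of -0.59 (SE 0.10, adjusted p = 0.00389), a 1.5-fold difference. The sgWDR77#1 libraries measured 252, 255 and 311 CPM (273 ± 33.1, SD, n = 3) and overlapped with sgNeg, with a log2 fold change of -0.19 (95% interval -0.45 to 0.07, adjusted p = 0.436). Those of sgPRMT5#1 averaged 313 ± 17.6 CPM (SD, n = 3, log2 fold change -0.03, 95% interval -0.20 to 0.14, adjusted p = 0.873). Those of sgPRMT5#2 averaged 298 ± 15.9 CPM (SD, n = 3, log2 fold change -0.10, 95% interval -0.24 to 0.05, adjusted p = 0.303). Both intervals leave out a change of the size called in sgWDR77#2.

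PLAU (ENSG00000122861.16, chromosome 10, 73909177 to 73917496, plus strand) encodes the serine protease that turns plasminogen into plasmin. It measured 382, 292 and 330 CPM in sgNeg (335 ± 45.1, SD, n = 3). It measured 472, 446 and 456 CPM in sgPRMT5#1 (458 ± 12.9, SD, n = 3) and 670, 665 and 690 CPM in sgPRMT5#2 (675 ± 13.1, SD, n = 3). All 6 libraries of the PRMT5 sgRNAs were above the highest sgNeg library, and those of sgPRMT5#2 were above those of sgPRMT5#1. PLAU rose with a log2 fold change of 0.45 in sgPRMT5#1 (SE 0.09, adjusted p = 0.00645) and of 1.01 in sgPRMT5#2 (SE 0.08, adjusted p = 5.19e-09). In sgWDR77#1 the libraries measured 359, 403 and 483 CPM (415 ± 62.8, SD, n = 3), and in sgWDR77#2 they measured 254, 327 and 331 CPM (304 ± 43.3, SD, n = 3). Both overlapped with sgNeg. The log2 fold change was 0.34 in sgWDR77#1 (95% interval 0.04 to 0.63, adjusted p = 0.216) and -0.14 in sgWDR77#2 (95% interval -0.39 to 0.10, adjusted p = 0.511). Without sgWDR77#1 replicate 1 the value for sgWDR77#1 was 0.42 (adjusted p = 0.0276). PLAU shares 915 exon bases (31% of its exon length) with C10orf55 on the opposite strand, which had 90 reads over the 15 libraries beside 38309 for PLAU.

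PLAUR (ENSG00000011422.12, chromosome 19, 43646095 to 43670547, minus strand) encodes the receptor that holds urokinase at the cell surface. It measured 16.3, 13.1 and 19.0 CPM in sgNeg (16.1 ± 2.95, SD, n = 3) and 28.6, 27.9 and 25.9 CPM in sgPRMT5#2 (27.5 ± 1.41, SD, n = 3). The sgPRMT5#2 libraries were all above the highest sgNeg library. PLAUR rose in sgPRMT5#2 with a log2 fold change of 0.78 (SE 0.14, adjusted p = 0.000169), a 1.72-fold difference. The sgPRMT5#1 libraries measured 18.8, 18.8 and 25.0 CPM (20.9 ± 3.57, SD, n = 3) and overlapped with sgNeg, with a log2 fold change of 0.35 (95% interval -0.01 to 0.72, adjusted p = 0.27). The sgWDR77#1 libraries averaged 13.4 ± 1.88 CPM and those of sgWDR77#2 14.8 ± 1.09 CPM (SD, n = 3), within or across the sgNeg range. Their log2 fold changes were -0.22 (95% interval -0.65 to 0.21, adjusted p = 0.596) and -0.11 (95% interval -0.47 to 0.26, adjusted p = 0.782).

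TIMP2 (ENSG00000035862.12, chromosome 17, 78852977 to 78925387, minus strand) measured 38.1, 32.5 and 27.8 CPM in sgNeg (32.8 ± 5.18, SD, n = 3). It measured 25.5, 18.5 and 17.6 CPM in sgPRMT5#1 (20.6 ± 4.32, SD, n = 3) and 18.8, 16.7 and 14.7 CPM in sgPRMT5#2 (16.7 ± 2.05, SD, n = 3). The sgWDR77#2 libraries measured 12.9, 18.2 and 22.5 CPM (17.9 ± 4.81, SD, n = 3). These 9 libraries were below the lowest sgNeg library. In sgWDR77#1 the values were 19.8, 19.8 and 34.5 CPM (24.7 ± 8.49, SD, n = 3), where replicate 3 lay within the sgNeg range. TIMP2 fell with a log2 fold change of -0.97 in sgPRMT5#2 (SE 0.14, adjusted p = 1.98e-05) and of -0.90 in sgWDR77#2 (SE 0.19, adjusted p = 0.0109). In sgPRMT5#1 it was -0.69 (SE 0.16, adjusted p = 0.0183). Without sgNeg replicate 1 this became -0.59 (adjusted p = 0.105), without sgPRMT5#1 replicate 2 it became -0.62 (adjusted p = 0.105) and without sgPRMT5#1 replicate 3 it became -0.60 (adjusted p = 0.0612). In sgWDR77#1 it was -0.42 (95% interval -0.88 to 0.04, adjusted p = 0.328). The exons of TIMP2 share 367 bases (5.91%) with ENSG00000267601 on the opposite strand, which had 0 reads, and 224 bases (3.61%) with CEP295NL on the same strand, which had 3 reads in all.

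TIMP1 (ENSG00000102265.12, chromosome X, 47582408 to 47586789, plus strand) did not pass the threshold in any of the 9 comparisons. It measured 63.2, 46.8 and 59.3 CPM in sgNeg (56.4 ± 8.53, SD, n = 3). The condition means of the sgRNAs lay between 55.7 ± 2.91 CPM in sgWDR77#2 and 65.2 ± 10 CPM in sgWDR77#1 (SD, n = 3). Libraries of every sgRNA overlapped with sgNeg. Its log2 fold change was 0.08 in sgPRMT5#1 (95% interval -0.17 to 0.32, adjusted p = 0.768) and 0.18 in sgPRMT5#2 (95% interval -0.04 to 0.39, adjusted p = 0.184). It was 0.24 in sgWDR77#1 (95% interval -0.09 to 0.56, adjusted p = 0.436) and -0.01 in sgWDR77#2 (95% interval -0.27 to 0.24, adjusted p = 0.969).

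Pooling the sgRNAs of 1 target asks what the 6 libraries of a knockout share. For PRMT5, 4 of 8 members were called against 17.0% of 14071 genes (8.73% higher and 8.30% lower), with PLAU and PLAUR higher and MMP13 and TIMP2 lower. This count was 2 without sgNeg replicate 2. MMP13 ran from 8.12 to 20.9 CPM with a median of 14 (14.8 ± 5.06, SD, n = 6) and had a log2 fold change of -1.94 (SE 0.19, adjusted p = 0.000117). TIMP2 ran from 14.7 to 25.5 CPM with a median of 18.1 and had a log2 fold change of -0.83 (SE 0.15, adjusted p = 0.00463). Neither overlapped with sgNeg. PLAU ran from 446 to 690 CPM with a median of 569 and had a log2 fold change of 0.73 (SE 0.15, adjusted p = 0.00945), which without sgNeg replicate 2 was 0.64 (adjusted p = 0.0657). MMP1 ran from 17.7 to 88.8 CPM with a median of 53.0 (52.1 ± 33.3, SD, n = 6) and had a log2 fold change of 0.19 (95% interval -0.87 to 1.25, adjusted p = 0.819). The 3 sgPRMT5#2 libraries lay above sgNeg, while of the sgPRMT5#1 libraries replicates 1 and 2 lay below it and replicate 3 within its range, so that the pooled value describes neither sgRNA. MMP10 likewise had a pooled log2 fold change of -0.43 (95% interval -1.20 to 0.35, adjusted p = 0.432).

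The pooled call of PLAUR for PRMT5 was close to the threshold. Its log2 fold change was 0.57 (SE 0.18, adjusted p = 0.0443) over libraries of 18.8 to 28.6 CPM with a median of 25.4. It was 0.57 without sgNeg replicate 1 (adjusted p = 0.136), 0.42 without sgNeg replicate 2 (adjusted p = 0.206) and 0.66 without sgNeg replicate 3 (adjusted p = 0.0681). It was 0.54 without sgPRMT5#1 replicate 3 (adjusted p = 0.0781). It was 0.51 without sgPRMT5#2 replicate 1 (adjusted p = 0.0828), 0.51 without replicate 2 (adjusted p = 0.0843) and 0.54 without replicate 3 (adjusted p = 0.0782). The direction was the same throughout, and the call was lost in each of these 7 fits.

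For WDR77, 3 of 8 members were called, all lower, against 3.39% of 14073 genes (0.838% higher and 2.55% lower). They were MMP1, MMP10 and MMP13, and the count was 5 without sgWDR77#1 replicate 3. MMP1 ran from 6.11 to 14.2 CPM with a median of 9.03 and had a log2 fold change of -2.0 (SE 0.24, adjusted p = 0.000111). MMP10 ran from 2.55 to 5.01 CPM with a median of 3.87 and had a log2 fold change of -1.87 (SE 0.24, adjusted p = 0.000231). MMP13 ran from 9.54 to 15.5 CPM with a median of 12.4 and had a log2 fold change of -2.14 (SE 0.15, adjusted p = 2.93e-07). None of the 3 overlapped with sgNeg in any of the 6 libraries. MMP14 had a log2 fold change of -0.40 (SE 0.14, adjusted p = 0.134), which without sgWDR77#1 replicate 3 was -0.48 (adjusted p = 0.0431). TIMP2 had a log2 fold change of -0.67 (SE 0.21, adjusted p = 0.101), which without sgWDR77#1 replicate 3 was -0.82 (adjusted p = 0.0169). The pooled median log2 fold change of the 8 members was 0.03 for PRMT5 and -0.54 for WDR77, beside -0.01 and 0.0029 over all genes tested.

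The direct comparison of sgPRMT5#2 with sgPRMT5#1 asks where sgRNAs of 1 target differ. Of the 8 members, 5 were called against 19.2% of 13976 genes (9.94% higher and 9.31% lower), with MMP1, MMP10, PLAU and PLAUR higher in sgPRMT5#2 and MMP13 lower. Squamous markers were also called lower in sgPRMT5#2 here. They were KRT5 (-2.26, adjusted p = 8.22e-11), KRT17 (-0.26, adjusted p = 0.00756), DSG3 (-0.38, adjusted p = 0.0307) and TP63 (-0.23, adjusted p = 0.0495). CDH1 (0.07, adjusted p = 0.437) and DSP (-0.14, adjusted p = 0.0576) did not pass the threshold. MMP1 had a log2 fold change of 1.94 (SE 0.13, adjusted p = 1.73e-09) and MMP10 of 1.49 (SE 0.19, adjusted p = 9.13e-06). For both genes the libraries of the sgRNAs did not overlap. PLAU had a log2 fold change of 0.56 (SE 0.05, adjusted p = 1.14e-07) and MMP13 of -0.82 (SE 0.18, adjusted p = 0.00274), again with no overlap. PLAUR had a log2 fold change of 0.42 (SE 0.13, adjusted p = 0.0302). It was 0.33 without sgPRMT5#1 replicate 1 (adjusted p = 0.155) and 0.36 without sgPRMT5#1 replicate 2 (adjusted p = 0.117). It was 0.39, 0.40 and 0.45 without sgPRMT5#2 replicate 1, 2 and 3 (adjusted p = 0.114, 0.103 and 0.0615). The call of PLAUR between the sgRNAs was lost in each of these fits, while the direction held. The PLAUR libraries of the sgRNAs did not overlap. TIMP2 had a log2 fold change of -0.28 (SE 0.15, adjusted p = 0.208), which was -0.38 without sgPRMT5#1 replicate 3 (adjusted p = 0.0365). The median over the 8 members was 0.25, beside 0.00083 over all genes.

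Between sgWDR77#2 and sgWDR77#1, limma called 0 of 8 members, against 0.121% of 14011 genes (0.0999% higher and 0.0214% lower). At an unadjusted p under 0.05 there were 3 members (MMP10, MMP14 and PLAU), and limma-trend called 0. The log2 fold change was 0.79 for MMP10 (95% interval 0.15 to 1.43, adjusted p = 0.324), -0.37 for MMP14 (95% interval -0.67 to -0.07, adjusted p = 0.318) and -0.46 for PLAU (95% interval -0.77 to -0.15, adjusted p = 0.253). Without sgWDR77#1 replicate 1, PLAU had a log2 fold change of -0.57 (adjusted p = 0.0266) and the count was 1. The intervals of these 3 genes were wide but left out 0, and their libraries did not overlap between the sgRNAs. The median over the 8 members was -0.15, beside -0.0037 over all genes.

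Comparing the 6 PRMT5 libraries with the 6 WDR77 libraries asks where the knockouts of the partners differ. The sgRNAs of each target were pooled and not separated in this fit. Here 5 of 8 members were called, all higher in the PRMT5 libraries, against 14.0% of 14015 genes (7.99% higher and 6.01% lower). The balance of directions over all genes depended on the scaling, with 57.1% of the calls higher here and 49.2% under RLE scaling. MMP1 had a log2 fold change of 2.20 (SE 0.47, adjusted p = 0.00731), and the lowest PRMT5 library at 17.7 CPM was above the highest WDR77 library at 14.2 CPM. PLAU had a log2 fold change of 0.66 (SE 0.14, adjusted p = 0.00815) and PLAUR of 0.75 (SE 0.14, adjusted p = 0.00306). For PLAUR the PRMT5 libraries were all above the WDR77 libraries, and for PLAU they overlapped. MMP10 had a log2 fold change of 1.46 (SE 0.38, adjusted p = 0.0181), which was 1.38 without sgWDR77#1 replicate 2 (adjusted p = 0.0509) and 1.35 without sgWDR77#1 replicate 3 (adjusted p = 0.0503). The count of members was 3 without sgWDR77#1 replicate 2. For MMP1, MMP10, PLAU and PLAUR the PRMT5 sgRNAs themselves differed. Their log2 fold changes in sgPRMT5#2 against sgPRMT5#1 were 1.94, 1.49, 0.56 and 0.42. MMP10 averaged 6.21 CPM in sgPRMT5#1 and 17.3 CPM in sgPRMT5#2, beside 2.76 CPM in sgWDR77#1 and 4.88 CPM in sgWDR77#2. The pooled values of these genes therefore describe neither PRMT5 sgRNA alone. In the pooled comparison MMP13 had a log2 fold change of 0.21 (SE 0.21, adjusted p = 0.516), TIMP2 of -0.15 (SE 0.18, adjusted p = 0.614) and TIMP1 of 0.04 (SE 0.09, adjusted p = 0.823). The median over the 8 members was 0.50, beside 0.02 over all genes.

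MMP14 in the same comparison had a log2 fold change of 0.35 (SE 0.10, adjusted p = 0.0282), over 287 to 328 CPM in the PRMT5 libraries and 178 to 311 CPM in the WDR77 libraries. Without sgPRMT5#2 replicate 1, 2 or 3 it was 0.34, 0.35 and 0.31 (adjusted p = 0.0696, 0.0595 and 0.091). Without sgWDR77#1 replicate 2 it was 0.35 (adjusted p = 0.0653). Without sgWDR77#2 replicate 2 it was 0.33 (adjusted p = 0.0638) and without sgWDR77#2 replicate 3 it was 0.31 (adjusted p = 0.0812). The groups overlapped, and the call was lost in each of these 6 fits.

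MMP1, MMP10 and MMP13 belong to a run of 9 metalloprotease genes on chromosome 11, all on the minus strand and spanning 435 kilobases, in the order MMP7, MMP20, MMP27, MMP8, MMP10, MMP1, MMP3, MMP12 and MMP13. MMP10 lies 8.77 kilobases from MMP1, and MMP1 lies 145 kilobases from MMP13. Over the 15 libraries the log2 CPM of MMP1 and MMP10 had a Pearson r of 0.96, that of MMP1 and MMP13 one of 0.21, and that of MMP10 and MMP13 one of 0.35. These are descriptions over libraries that share 5 conditions. MMP3, stromelysin 1, is the next gene of the run after MMP1. Its sgNeg libraries held 1, 2 and 8 reads (0.169, 0.329 and 1.45 CPM), those of sgPRMT5#1 measured 9.32, 10.9 and 18.7 CPM (12.9 ± 5.01, SD, n = 3), and those of sgPRMT5#2 measured 69.3, 68.0 and 59.4 CPM (65.6 ± 5.40, SD, n = 3). No library of a PRMT5 sgRNA overlapped with sgNeg. The fitted log2 fold change of MMP3 was 4.51 in sgPRMT5#1 (SE 0.66, adjusted p = 0.000702) and 6.93 in sgPRMT5#2 (SE 0.55, adjusted p = 7.59e-09), on few control reads. Leaving out 1 library gave 3.94 to 5.21 in sgPRMT5#1 and 6.40 to 7.65 in sgPRMT5#2, lowest without sgNeg replicate 1 and highest without sgNeg replicate 3, which holds 8 of the control reads. The sgWDR77#1 libraries measured 0.739, 0.555 and 0.365 CPM, within the sgNeg range (log2 fold change 0.26, SE 0.75, adjusted p = 0.893). MMP12, macrophage elastase, averaged 3.75 ± 0.579 CPM in sgNeg and 9.52 ± 1.10 CPM in sgPRMT5#2 (SD, n = 3, log2 fold change 1.32, SE 0.24, adjusted p = 0.000199). It averaged 1.23 ± 0.103 CPM in sgWDR77#1 (log2 fold change -1.51, SE 0.39, adjusted p = 0.0647) and 1.86 ± 0.901 CPM in sgWDR77#2 (-1.09, SE 0.38, adjusted p = 0.117; SD, n = 3), all 6 libraries below sgNeg. MMP7, matrilysin, held 36, 33 and 18 reads in sgNeg and 4, 3 and 1 in sgPRMT5#2, and it fell there with a log2 fold change of -3.37 (SE 0.58, adjusted p = 0.000107).

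**Figure D4:**
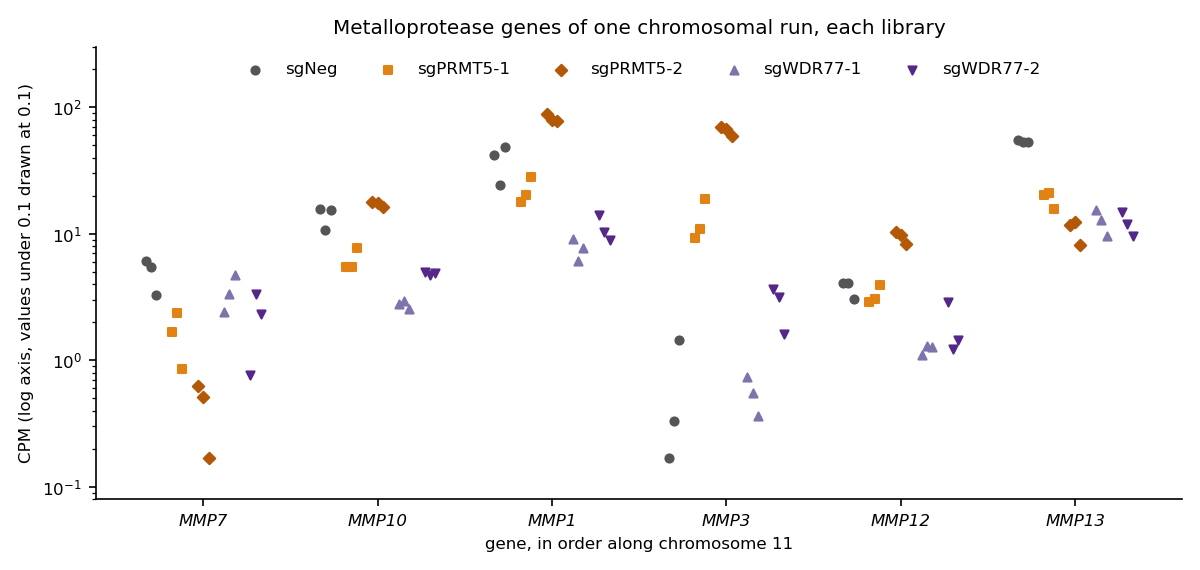
TMM-scaled CPM (log axis, values under 0.1 drawn at 0.1) of MMP7, MMP10, MMP1, MMP3, MMP12 and MMP13, in the order of the chromosome 11 run, in each of the 15 libraries. MMP3 has its highest values in the 3 sgPRMT5#2 libraries, and MMP13 is lower than sgNeg in every other library.

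In the pooled WDR77 libraries MMP12 was called lower, with a log2 fold change of -1.31 (SE 0.31, adjusted p = 0.0297). This call was lost without sgNeg replicate 1 (-1.25, adjusted p = 0.123), 2 (-1.23, adjusted p = 0.119) or 3 (-1.44, adjusted p = 0.0569). It was also lost without sgWDR77#1 replicate 2 (-1.28, adjusted p = 0.0652) or 3 (-1.27, adjusted p = 0.055) and without sgWDR77#2 replicate 2 (-1.26, adjusted p = 0.0719) or 3 (-1.30, adjusted p = 0.0614). The direction held in each of these fits.

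The other 18 matrix metalloproteases give the wider family, of which 7 or 8 were tested in the comparison of each sgRNA with sgNeg. The counts for this list and the lists that follow stand beside the shares of all genes called, which were 3.76% for sgPRMT5#1 and 40.1% for sgPRMT5#2, and 2.71% for sgWDR77#1 and 4.97% for sgWDR77#2. In sgPRMT5#1, 1 of 7 was called higher (MMP3) and 1 lower (MMP7), with a median log2 fold change of -0.21. In sgPRMT5#2, 2 of 7 were called higher (MMP3 and MMP12) and 2 lower (MMP7 and MMP15), with a median of -0.30. In sgWDR77#1, 0 of 8 were called higher and 1 lower (MMP2), with a median of -0.05, and in sgWDR77#2, 1 of 7 was called higher (MMP3) and 1 lower (MMP15), with a median of -0.44. MMP2, the gelatinase that MMP14 activates, is named outside the rule for named genes, after its values were seen. MMP15, a membrane-anchored metalloprotease, averaged 36.5 ± 5.39 CPM in sgPRMT5#2 and 49.4 ± 3.52 CPM in sgNeg (SD, n = 3, log2 fold change -0.46, SE 0.11, adjusted p = 0.00261). The call of MMP7 in sgPRMT5#1 (log2 fold change -1.62, adjusted p = 0.0313) was lost without sgNeg replicate 1 (-1.46, adjusted p = 0.115) or 2 (-1.53, adjusted p = 0.0749) and without sgPRMT5#1 replicate 1 (-1.68, adjusted p = 0.0789), 2 (-1.92, adjusted p = 0.0716) or 3 (-1.28, adjusted p = 0.133). The call of MMP3 in sgWDR77#2 (2.35, adjusted p = 0.0473) was lost without sgNeg replicate 1 (1.81, adjusted p = 0.177), 2 (2.16, adjusted p = 0.152) or 3 (3.07, adjusted p = 0.0515) and without sgWDR77#2 replicate 1 (2.15, adjusted p = 0.0762) or 2 (2.24, adjusted p = 0.124). That of MMP15 in sgWDR77#2 (-0.44, adjusted p = 0.0319) was lost without sgNeg replicate 1 (-0.38, adjusted p = 0.136), 2 (-0.48, adjusted p = 0.0523) or 3 (-0.46, adjusted p = 0.0721) and without sgWDR77#2 replicate 2 (-0.39, adjusted p = 0.164) or 3 (-0.43, adjusted p = 0.0815).

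The ADAM and ADAMTS proteases are related metalloproteases, many of which release proteins from the cell surface, and 11 of 15 listed were tested. In sgPRMT5#1, 2 were called higher (ADAM8 and ADAM12) and 0 lower, with a median of 0.04. In sgPRMT5#2, 5 were called higher (ADAM8, ADAM12, ADAM19, ADAMTS1 and ADAMTS6) and 3 lower (ADAM10, ADAM15 and ADAM28), with a median of 0.02, where 20.9% of all genes were called higher and 19.3% lower. In sgWDR77#1 and in sgWDR77#2, 0 were called higher and 1 lower (ADAM19), with medians of -0.28 and -0.22. ADAM19 was thus called in both directions, higher in sgPRMT5#2 and lower with both WDR77 sgRNAs. ADAM15, ADAM19, ADAM28 and ADAMTS6 are named after their values were seen. ADAMTS1 rose in sgPRMT5#2 from 9.50 ± 3.22 to 59.6 ± 2.91 CPM (SD, n = 3, log2 fold change 2.7, SE 0.17, adjusted p = 4.97e-10). ADAM8 rose there from 64.3 ± 8.22 to 157 ± 3.57 CPM (SD, n = 3, log2 fold change 1.28, SE 0.09, adjusted p = 1e-09). In sgPRMT5#1 ADAM8 had a log2 fold change of 0.50 (SE 0.12, adjusted p = 0.023), which was 0.38 without sgNeg replicate 3 (adjusted p = 0.111), 0.55 without sgPRMT5#1 replicate 2 (adjusted p = 0.0573) and 0.39 without sgPRMT5#1 replicate 3 (adjusted p = 0.0724). ADAM12 averaged 31.7 ± 3.24 CPM in sgNeg, 54.4 ± 8.95 CPM in sgPRMT5#1 and 60.0 ± 0.956 CPM in sgPRMT5#2 (SD, n = 3). Its log2 fold change was 0.76 in sgPRMT5#1 (SE 0.14, adjusted p = 0.00389) and 0.92 in sgPRMT5#2 (SE 0.10, adjusted p = 5.75e-07). ADAM10 fell in sgPRMT5#2 from 342 ± 31.8 to 247 ± 10 CPM (SD, n = 3, log2 fold change -0.47, SE 0.07, adjusted p = 3.82e-05).

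Other genes of the plasminogen system are given one by one. S100A10, a cell-surface receptor of plasminogen, averaged 252 ± 26.1 CPM in sgNeg, 168 ± 23.8 CPM in sgPRMT5#1 and 120 ± 3.68 CPM in sgPRMT5#2 (SD, n = 3). It fell with a log2 fold change of -0.60 in sgPRMT5#1 (SE 0.10, adjusted p = 0.00181) and of -1.08 in sgPRMT5#2 (SE 0.08, adjusted p = 3.5e-09). LRP1, a receptor that takes up proteases from the cell surface, averaged 89.1 ± 15.6 CPM in sgNeg, 53.1 ± 11.4 CPM in sgPRMT5#1, 29.9 ± 3.56 CPM in sgPRMT5#2 and 51.1 ± 8.46 CPM in sgWDR77#2 (SD, n = 3). Its log2 fold change was -0.76 in sgPRMT5#1 (SE 0.14, adjusted p = 0.00477), -1.58 in sgPRMT5#2 (SE 0.12, adjusted p = 8.18e-09) and -0.81 in sgWDR77#2 (SE 0.14, adjusted p = 0.00392). PLAT, the tissue-type plasminogen activator, fell in sgPRMT5#2 from 40.0 ± 3.38 to 22.9 ± 3.39 CPM (SD, n = 3, log2 fold change -0.82, SE 0.12, adjusted p = 2.16e-05) and in sgWDR77#2 to 24.8 ± 1.48 CPM (log2 fold change -0.70, SE 0.13, adjusted p = 0.00454). In sgWDR77#1 the log2 fold change of PLAT was -0.75 (SE 0.16, adjusted p = 0.0253), a call that was lost without sgNeg replicate 1 (-0.70, adjusted p = 0.126), 2 (-0.75, adjusted p = 0.0993) or 3 (-0.82, adjusted p = 0.0931) and without sgWDR77#1 replicate 2 (-0.76, adjusted p = 0.0886). SERPINB2, an inhibitor of urokinase, had at most 4 reads in a library and was not tested.

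**Figure D5:**
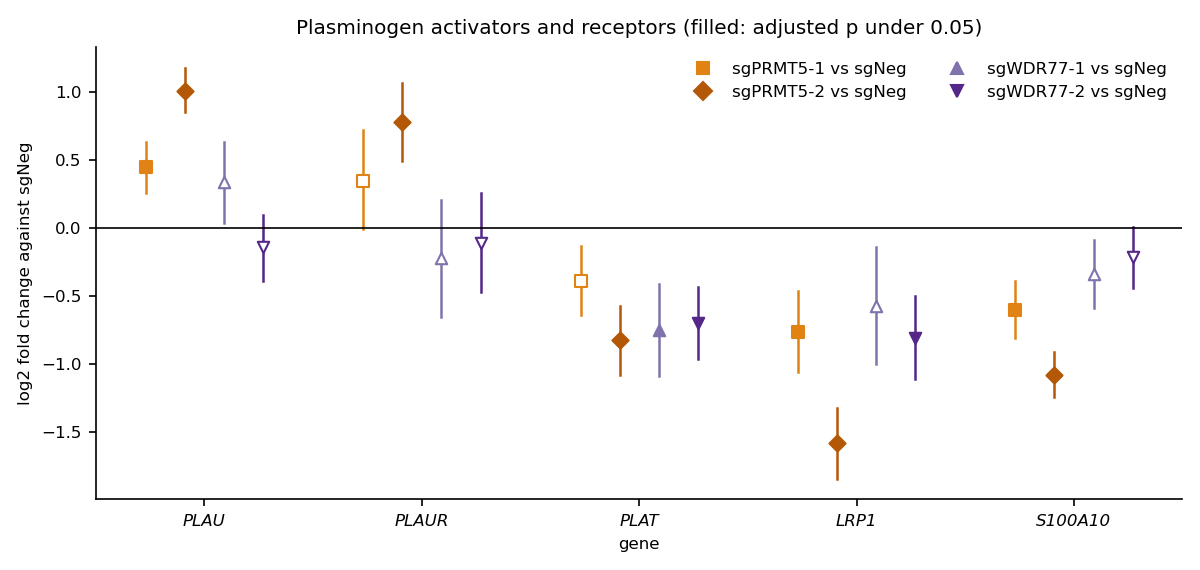
Log2 fold change against sgNeg (y axis) of PLAU, PLAUR, PLAT, LRP1 and S100A10 for each of the 4 sgRNAs, with 95% intervals as bars and filled points for an adjusted p under 0.05. PLAU is higher and LRP1 and S100A10 lower for both PRMT5 sgRNAs.

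Of 8 further inhibitors and inducers of metalloproteases, 7 were tested with the PRMT5 sgRNAs and 6 with the WDR77 sgRNAs. In sgPRMT5#1 limma called 0 of 7 (4 at an unadjusted p under 0.05 and 0 by limma-trend), with a median log2 fold change of -0.26. In sgPRMT5#2, 1 was called higher (CD44) and 3 lower (TIMP3, RECK and LCN2), with a median of -0.54, beside 40.1% of all genes called. In sgWDR77#1, 1 of 6 was called higher (LCN2) and 0 lower, with a median of -0.08, and in sgWDR77#2 limma called 0 of 6 (3 at an unadjusted p under 0.05 and 0 by limma-trend), with a median of -0.20. CD44, which holds metalloproteases at the cell surface, rose in sgPRMT5#2 from 504 ± 7.71 to 845 ± 13.2 CPM (SD, n = 3, log2 fold change 0.74, SE 0.06, adjusted p = 6.87e-09). LCN2, a lipocalin that binds MMP9, fell in sgPRMT5#2 from 51.5 ± 14 to 22.6 ± 1.41 CPM (SD, n = 3, log2 fold change -1.17, SE 0.15, adjusted p = 6.22e-06). In sgWDR77#1 LCN2 had a log2 fold change of 1.15 (SE 0.22, adjusted p = 0.0173), which was 1.07 without sgNeg replicate 2 (adjusted p = 0.104) and 1.01 without sgNeg replicate 3 (adjusted p = 0.147). TIMP3, an inhibitor bound to the matrix, had a log2 fold change of -1.16 in sgPRMT5#2 (SE 0.42, adjusted p = 0.0342), which was -0.96 without sgNeg replicate 3 (adjusted p = 0.111) and -1.02, -1.29 and -1.10 without sgPRMT5#2 replicate 1, 2 and 3 (adjusted p = 0.124, 0.0632 and 0.098). RECK, a membrane-bound inhibitor of metalloproteases, had a log2 fold change of -1.03 in sgPRMT5#2 (SE 0.30, adjusted p = 0.0101), which was -0.82 without sgPRMT5#2 replicate 2 (adjusted p = 0.0677).

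Of 18 pericellular serine proteases and their inhibitors, 15 were tested. In sgPRMT5#1, 0 were called higher and 3 lower (SLPI, TMPRSS4 and KLK7, the last named after its values were seen), with a median log2 fold change of -0.11. In sgPRMT5#2, 5 were called higher (TMPRSS11E, and FURIN, ST14, SPINT1 and SPINT2, named after their values were seen) and 7 lower (SLPI, TMPRSS4 and KLK10, and HTRA1, KLK6, KLK7 and KLK8, named after their values were seen), with a median of -0.23. In that comparison 40.1% of all genes were called, 20.9% higher and 19.3% lower. In sgWDR77#1 limma called 0 (2 at an unadjusted p under 0.05 and 0 by limma-trend), with a median of -0.09, and in sgWDR77#2 it called 0 (5 at an unadjusted p under 0.05 and 1 by limma-trend), with a median of -0.13. SLPI, a secreted inhibitor of serine proteases, had a log2 fold change of -1.46 in sgPRMT5#1 (SE 0.32, adjusted p = 0.0147), which was -1.16 without sgNeg replicate 1 (adjusted p = 0.0719) and -1.51 and -1.12 without sgPRMT5#1 replicate 2 and 3 (adjusted p = 0.067 and 0.0662). TMPRSS4, a membrane-anchored serine protease, averaged 53.8 ± 17.3 CPM in sgNeg, 17.7 ± 5.69 CPM in sgPRMT5#1 and 5.67 ± 0.608 CPM in sgPRMT5#2 (SD, n = 3). Its log2 fold change was -1.61 in sgPRMT5#1 (SE 0.23, adjusted p = 0.000444) and -3.20 in sgPRMT5#2 (SE 0.29, adjusted p = 5.34e-08), with a difference of -1.59 in the direct comparison (SE 0.25, adjusted p = 0.00019). TMPRSS11E rose in sgPRMT5#2 from 1.08 ± 0.0674 to 5.42 ± 0.906 CPM (SD, n = 3, log2 fold change 2.22, SE 0.38, adjusted p = 0.000124).

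Of 13 cathepsins and cystatins, which are lysosomal proteases and their inhibitors, 12 were tested. In sgPRMT5#1, 0 were called higher and 2 lower (CTSH and CTSD), with a median log2 fold change of -0.16, and in sgPRMT5#2, 1 was called higher (CST6, named after its values were seen) and 6 lower, with a median of -0.31, beside 40.1% of all genes called. In sgWDR77#1, 0 were called higher and 2 lower (CTSH and CTSD), with a median of 0.03, and in sgWDR77#2, 1 was called higher (CTSC, named after its values were seen) and 3 lower (CTSH, CTSD and CTSB), with a median of -0.07. The call of CTSB in sgWDR77#2 (log2 fold change -0.46, adjusted p = 0.0436) was lost without sgNeg replicate 1 (-0.33, adjusted p = 0.179) or 3 (-0.47, adjusted p = 0.0929) and without sgWDR77#2 replicate 1 (-0.36, adjusted p = 0.0917), 2 (-0.47, adjusted p = 0.119) or 3 (-0.50, adjusted p = 0.0571). CTSD and CTSH were thus called lower with each of the 4 sgRNAs. CTSD measured 231, 191 and 206 CPM in sgNeg (210 ± 20.4, SD, n = 3), and its highest library with an sgRNA was at 135 CPM. CTSD fell with a log2 fold change of -0.77 in sgPRMT5#1 (SE 0.09, adjusted p = 9.68e-05), -1.38 in sgPRMT5#2 (SE 0.08, adjusted p = 2.19e-10), -0.86 in sgWDR77#1 (SE 0.12, adjusted p = 0.00363) and -0.96 in sgWDR77#2 (SE 0.10, adjusted p = 3.8e-05). That of CTSH was -0.54 (SE 0.10, adjusted p = 0.00377), -1.12 (SE 0.09, adjusted p = 1.05e-08), -0.89 (SE 0.12, adjusted p = 0.00242) and -0.81 (SE 0.10, adjusted p = 0.000298) in the same order.

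The genes most like the members called in at least 2 comparisons were found by the Pearson r of log2 CPM over the 15 libraries, among 9222 genes with a mean normalized count of at least 50. For MMP1 they were MMP10 (r 0.96), VPS37B (0.94) and MTG2 (0.93), and for MMP10 they were MMP1 (0.96), MTG2 (0.90) and MTCH1 (0.89). For MMP13 they were BMP7 (0.93), SEMA3A (0.91) and UBE3A (0.91). For PLAU they were IRAK2 (0.94), TGFA (0.92) and NT5E (0.91), and for TIMP2 they were KLHL36 (0.91), MDK (0.91) and EFS (0.89). Among the members, PLAU and PLAUR had an r of 0.77, MMP1 and PLAUR of 0.83, MMP13 and TIMP2 of 0.61, and MMP13 and PLAU of -0.44. MMP1 and MMP10 were thus each other's nearest gene, and MMP13, which lies in the same run, was near neither.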

How the data were processed

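RNA-seq was measured in 15 libraries. The authors used STAR for alignment to hg38 and htseq-count for counting. The deposited unit is the whole number of reads per gene, not normalized. The strand setting and the annotation release are not given in the sources used here, and the study's methods name a TruSeq RNA v2 kit where the labels name a stranded one, so that reads of genes overlapping on opposite strands are uncertain. Summary entries were kept out of the totals (reads outside genes 2.75% to 7.16%, ambiguous 7.09% to 7.93%, multiply aligned 9.49% to 13.1%). Depth was 5146711 to 6730428 reads on genes per library, and the floor of 3 counts covers counting error only, while the 95% intervals are limma's and rest on the spread between libraries.

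Each comparison was fitted on its own libraries with limma 3.58.1 (voom, R 4.3.3) after TMM scaling (trims 0.3 and 0.05), for genes with a mean normalized count of at least 3, with Benjamini-Hochberg adjustment over all genes tested and a threshold of 0.05. The code was tested on simulated data. Replicates were checked in pairs for copies (chi-square over its degrees of freedom 1.55 to 17.7, none found). Alternatives tried were RLE and upper quartile scaling, no filter, a mean count of at least 10, a replicate block, all 15 libraries in 1 fit, each sgRNA as its own group, limma-trend, and leaving out each library. Genes named from the lists were taken from the 4 with the smallest adjusted p in each list, with SERPINB2, PLAT and TIMP3. Exon lengths and positions came from a GENCODE annotation of GRCh38 (60507 of 60649 genes matched). The members and lists were chosen with earlier results of these data known.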

Additional observations from a re-analysis of the deposited data

Results flagged for a closer look

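In 2 direct comparisons members differed between groups, and limma tested each difference itself over the libraries of both. Between sgPRMT5#2 and sgPRMT5#1, which have the same target, the log2 difference was 1.94 for MMP1, 1.49 for MMP10, -0.82 for MMP13, 0.56 for PLAU and 0.42 for PLAUR, whose call was lost in 5 of the 6 fits that left out 1 library. Against sgNeg, MMP1 was lower in sgPRMT5#1, a call lost when any 1 of 4 libraries was left out, and higher in sgPRMT5#2. The sgRNAs of each target were pooled in the comparison of PRMT5 with WDR77 libraries. There the log2 difference was 2.20 for MMP1, 1.46 for MMP10, 0.35 for MMP14, 0.66 for PLAU and 0.75 for PLAUR. Of the 12 fits that left out 1 library, 6 lost the call of MMP14 and 2 that of MMP10. The cause of these differences was not tested. Of 20 groups of 6 libraries examined, 0 had a library far from the others.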

How the results depend on the processing

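Of 1336 fits of 182 followed fold changes under other settings, 1301 kept the direction and the side of the threshold, 30 lost the call and 5 gained one. Of 1362 fits that left out 1 library, 1188 kept both, 150 lost the call, 5 gained one and 19 changed direction. The planned runs with edgeR and DESeq2 were not run, and limma-trend on log2 CPM took their place.

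The count of members called went from 3 to 5 for the pooled WDR77 libraries and from 0 to 1 for sgWDR77#2 against sgWDR77#1 when all 15 libraries were put in 1 fit. Leaving out 1 library gave 3 to 5 members for sgPRMT5#1, 2 to 4 for the pooled PRMT5 libraries, 3 to 5 for the pooled WDR77 libraries, 0 to 1 for sgWDR77#2 against sgWDR77#1 and 3 to 5 for PRMT5 against WDR77 libraries. Without a filter MMP9 was also called in sgPRMT5#2 and against sgPRMT5#1 (6 members each).

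Fold changes that changed direction when 1 library was left out were all uncalled. They ranged from -0.09 to 0.02 (MMP14) and -0.05 to 0.15 (TIMP1) in sgPRMT5#1, -0.24 to 0.01 (PLAUR) and -0.14 to 0.09 (TIMP1) in sgWDR77#2, -0.11 to 0.45 (MMP1) and -0.0033 to 0.20 (TIMP1) for pooled PRMT5, -0.01 to 0.19 (PLAU) and -0.02 to 0.19 (TIMP1) for pooled WDR77, -0.24 to 0.10 (MMP13) for sgWDR77#2 against sgWDR77#1, and -0.02 to 0.09 (TIMP1) for PRMT5 against WDR77 libraries.

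With the replicate block, members called were 5 for sgPRMT5#1, 5 for sgPRMT5#2, 3 for sgWDR77#1, 5 for sgWDR77#2, 3 for pooled PRMT5 and 3 for pooled WDR77, 5 for sgPRMT5#2 against sgPRMT5#1, 0 for sgWDR77#2 against sgWDR77#1 and 5 for PRMT5 against WDR77 libraries. PLAUR in pooled PRMT5 was lost (0.55, adjusted p = 0.0667). Of the list-gene calls printed above, the block also ended those of MMP3 (2.11, adjusted p = 0.15), MMP15 (-0.44, adjusted p = 0.0844) and CTSB (-0.46, adjusted p = 0.102) in sgWDR77#2 and of MMP12 in pooled WDR77 (-1.30, adjusted p = 0.0577). Of those not printed above, it ended MMP15 (-0.36, adjusted p = 0.0675), ADAM10 (-0.33, adjusted p = 0.0518), RECK (-0.82, adjusted p = 0.0513) and TIMP3 (-1.19, adjusted p = 0.0546) in pooled PRMT5. It also ended MMP7 (-1.56, adjusted p = 0.0553) and ADAMTS1 (1.66, adjusted p = 0.0553) for PRMT5 against WDR77 libraries. Replicate numbers were checked as pairs. Over 11839 genes, 30 pairs of libraries with the same number had r from -0.33 to 0.27 (median -0.01), 4 of them over 0.1, and 60 pairs with other numbers had -0.26 to 0.46 (median 0.002).

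Other calls of tested members were lost for TIMP2 in sgPRMT5#1 with all 15 libraries (-0.67, adjusted p = 0.0737), MMP1 in sgPRMT5#1 with a mean count of at least 10 (-0.78, adjusted p = 0.0513), PLAUR in pooled PRMT5 without a filter (0.56, adjusted p = 0.0632) and PLAUR in sgPRMT5#2 against sgPRMT5#1 with all 15 libraries (0.41, adjusted p = 0.0839). Calls were gained for MMP10 in pooled PRMT5 with each sgRNA as its own group (-0.42, adjusted p = 0.0463), MMP14 in pooled WDR77 with all 15 libraries (-0.40, adjusted p = 0.00687) and with own groups (-0.40, adjusted p = 0.0414), TIMP2 in pooled WDR77 with all 15 libraries (-0.67, adjusted p = 0.0165) and PLAU in sgWDR77#2 against sgWDR77#1 with all 15 libraries (-0.45, adjusted p = 0.0425).

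Of the list-gene calls printed above, those in sgPRMT5#1 were lost with all 15 libraries for MMP7 (-1.61, adjusted p = 0.0544) and ADAM8 (0.52, adjusted p = 0.142), as was that of MMP3 in sgWDR77#2 (2.36, adjusted p = 0.0547). Without a filter, calls were lost for TIMP3 in sgPRMT5#2 (-1.16, adjusted p = 0.0568), MMP15 in sgWDR77#2 (-0.44, adjusted p = 0.059) and MMP12 in pooled WDR77 (-1.31, adjusted p = 0.0502). Some list-gene calls not printed above were also lost. With all 15 libraries they were MMP7 (-1.75, adjusted p = 0.14), ADAM10 (-0.28, adjusted p = 0.142) and PLAT (-0.44, adjusted p = 0.0557) in sgPRMT5#2 against sgPRMT5#1. Without a filter they were MMP15 (-0.36, adjusted p = 0.0784) and RECK (-0.83, adjusted p = 0.0653) in pooled PRMT5. Upper quartile scaling ended MMP15 (-0.33, adjusted p = 0.0562) and ADAM10 (-0.30, adjusted p = 0.0614) there. With limma-trend the log2 fold change of MMP3 was 3.90 in sgPRMT5#1 and 6.28 in sgPRMT5#2, both called.

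The number of all genes called moved more. It went from 530 to 987 without a filter and 1427 with the replicate block in sgPRMT5#1 (211 to 510 with 1 library left out, lowest without sgPRMT5#1 replicate 2), and the share of calls that were higher went from 40.4% to 54.0% with the block. It went from 385 to 1333 with all 15 libraries in sgWDR77#1 (56 without sgNeg replicate 3 to 1003 without sgWDR77#1 replicate 1), from 698 to 369 with the block in sgWDR77#2 (293 to 661), from 2397 to 4347 with each sgRNA as its own group in pooled PRMT5 (483 to 3562), and from 477 to 1187 with all 15 libraries in pooled WDR77 (199 to 677). Against sgPRMT5#1 it went from 2690 to 1059 with all 15 libraries (1429 to 4711), against sgWDR77#1 from 17 to 127 without a filter and 339 with all 15 libraries (0 to 156), and for PRMT5 against WDR77 libraries from 1962 to 3813 with all 15 libraries and 3641 with own groups (876 to 3178). Under RLE scaling the calls were 949 higher and 979 lower for PRMT5 against WDR77 libraries (49.2% higher, against 57.1%) and 1131 higher and 1217 lower for pooled PRMT5 (48.2%, against 51.3%). For pooled PRMT5 the share went the other way under upper quartile scaling, with 1614 higher and 1047 lower (60.7%), and with limma-trend (56.8%). The cause was not tested.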

Other observations

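MMP8, a collagenase of the same chromosome 11 run, had 18 reads over the 15 libraries, all of them in sgPRMT5#1 replicate 1. MMP20 had 1 read and MMP27 had 0 reads.

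Each condition has 3 libraries, and the same 3 sgNeg libraries serve every comparison with sgNeg, so that a deviation in them enters each one. Whether a line was 1 clone or a pool is not stated, so that the sgRNA and the line cannot be told apart. RNA was measured, while protein, secretion and protease activity were not. MMP9 did not pass the filter on low counts. Genes named from the lists after their values were seen (such as MMP2, ADAM19, KLK7 and CTSC) were not followed under other settings.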
